A study of Rattus norvegicus with 12 samples.

Results

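Transcripts of 8 genes that build and hold the myelin sheath of peripheral nerve were followed in rat sciatic nerve stumps. They are Mbp, Pmp22, Mal, Mag, Gjb1, Cldn19, Prx and Ncmap, and they were taken by gene symbol from a deposited count table of 30562 genes. All 8 were in the table, and all 8 were among the 15712 genes that had enough counts to be tested.

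The study made 12 poly(A) RNA libraries, 3 from each of 4 groups of stumps, to ask how cone-shaped conduits placed on a cut nerve act on it and what YAP contributes. VP4:2 stumps had the 4:2 conduit loaded with verteporfin, a compound that keeps the coactivator YAP from binding its TEAD partners. CC4:2 stumps had the 4:2 conduit without it, CC4:4 stumps had the conduit labelled 4:4, and the last group was labelled Control. The labels do not give what Control stumps received, on which side of the cut the stumps lay, what the numbers in 4:2 and 4:4 measure, the time after surgery, the strain or age, or whether replicates came from separate rats. Replicate spread, and with it every p-value, may thus be technical in part. A vehicle-loaded conduit was not analysed here, so the compound and the loading cannot be told apart.

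In peripheral nerve, a myelinating Schwann cell wraps its membrane around an axon many times. Most of the wraps are pressed together as compact myelin, in which Mbp and Pmp22 are structural proteins. Channels and loops of uncompacted membrane hold the adhesion protein Mag, the gap junction protein of Gjb1 and the tight junction protein of Cldn19, while periaxin, from Prx, ties the outermost Schwann cell membrane to its surroundings. After a nerve is cut, Schwann cells beyond the cut lower their myelin genes, and they raise them again when they remyelinate regrowing axons. In bulk tissue such as this, fewer myelinating cells and less myelin RNA per cell cannot be told apart.

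The genes moved together across the stumps, so their promoters are shown first, for the binding words of factors known to act on myelin genes (SOX10, EGR2) and of TEAD, the partner that verteporfin separates from YAP. The RefSeq table at hand (build GRCr8) held windows of 300 bases, from 250 before to 50 after each start, for all 8 genes, with 2 starts for Mbp. The build behind the counts is not given in the sources used here, and these windows were used for sequence only. Both strands were searched for the letters GGAATG (TEAD core), ACAAAG and ACAATG (SOX core) and GTGGGCG (EGR core). The capitals in the sequences below mark the matches, and each sequence is the 250 bases before the start, in the direction of transcription. Pmp22 lies at chr10:48294682-48294931 (plus strand), Prx at chr1:91914171-91914420 (plus strand), Mag at chr1:95291045-95291294 (minus strand) and Cldn19 at chr5:138148325-138148574 (plus strand).
Pmp22: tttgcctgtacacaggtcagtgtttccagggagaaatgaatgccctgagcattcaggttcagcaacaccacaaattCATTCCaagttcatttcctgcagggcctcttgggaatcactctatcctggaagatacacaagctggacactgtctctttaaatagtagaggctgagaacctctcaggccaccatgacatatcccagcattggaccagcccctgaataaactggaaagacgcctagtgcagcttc
Prx: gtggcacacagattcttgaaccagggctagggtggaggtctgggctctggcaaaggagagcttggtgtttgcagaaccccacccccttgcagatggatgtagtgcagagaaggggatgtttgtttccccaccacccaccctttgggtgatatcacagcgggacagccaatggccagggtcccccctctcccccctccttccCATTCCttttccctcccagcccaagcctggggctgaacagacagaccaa
Mag: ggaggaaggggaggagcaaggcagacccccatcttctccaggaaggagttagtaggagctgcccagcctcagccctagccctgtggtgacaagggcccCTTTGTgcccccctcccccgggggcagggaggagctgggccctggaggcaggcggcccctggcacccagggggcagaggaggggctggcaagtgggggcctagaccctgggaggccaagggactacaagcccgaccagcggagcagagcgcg
Cldn19: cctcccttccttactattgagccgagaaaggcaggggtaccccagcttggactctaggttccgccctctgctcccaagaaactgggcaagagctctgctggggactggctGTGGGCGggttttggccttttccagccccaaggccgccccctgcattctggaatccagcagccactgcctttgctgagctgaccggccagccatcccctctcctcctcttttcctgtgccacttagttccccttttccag
Pmp22 and Prx carry CATTCC, the TEAD core read on the opposite strand, at positions -174 to -169 and -49 to -44 from the start. Gjb1 has the same letters at 21 to 26, past its start, so 3 of the 9 windows hold the TEAD core, against 14.2% of all 33469 windows of that length. Mag carries CTTTGT, the SOX core on the opposite strand, at -152 to -147. The window of the second Mbp start has 3 SOX core matches, and 29.1% of all windows hold at least 1. Cldn19 carries the EGR core at -140 to -134, which 7.12% of all windows hold. The first Mbp window, Mal and Ncmap have none of these letters. Such matches are short words found in many genes, and they describe these windows only.

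Of the 12 libraries, each held 13763067 to 18632280 counts after rounding and 17561 to 17984 detected genes. Levels are given as CPM, the counts divided by the library total after TMM scaling. Gene length was not used, so CPM values are compared between stumps and not between genes. Schwann cell markers were present in every group, as described further on. Control replicate 1 stood apart from the other controls, and it held the lowest level of each of the 8 genes among all 12 stumps. The 8 genes together made up 0.728%, 0.834% and 0.552% of all counts in the 3 VP4:2 stumps, in replicate order. The shares were 1.58%, 0.886% and 0.637% in CC4:2 stumps. They were 0.140%, 0.109% and 0.1002% in CC4:4 stumps and 0.0251%, 0.176% and 0.104% in Control stumps.

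The 2 groups with a 4:2 conduit, with or without verteporfin, held more myelin sheath RNA than the CC4:4 and Control stumps. In each of the 8 genes CC4:2 had the highest group mean and VP4:2 the next. VP4:2 and CC4:2 stumps overlapped in each gene, as did the low CC4:4 and Control stumps. Between the high pair and the low pair of groups, no stump overlapped for any of the 8 genes. How many of all tested genes show this pattern over the 4 groups was not computed.

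**Figure D1:**
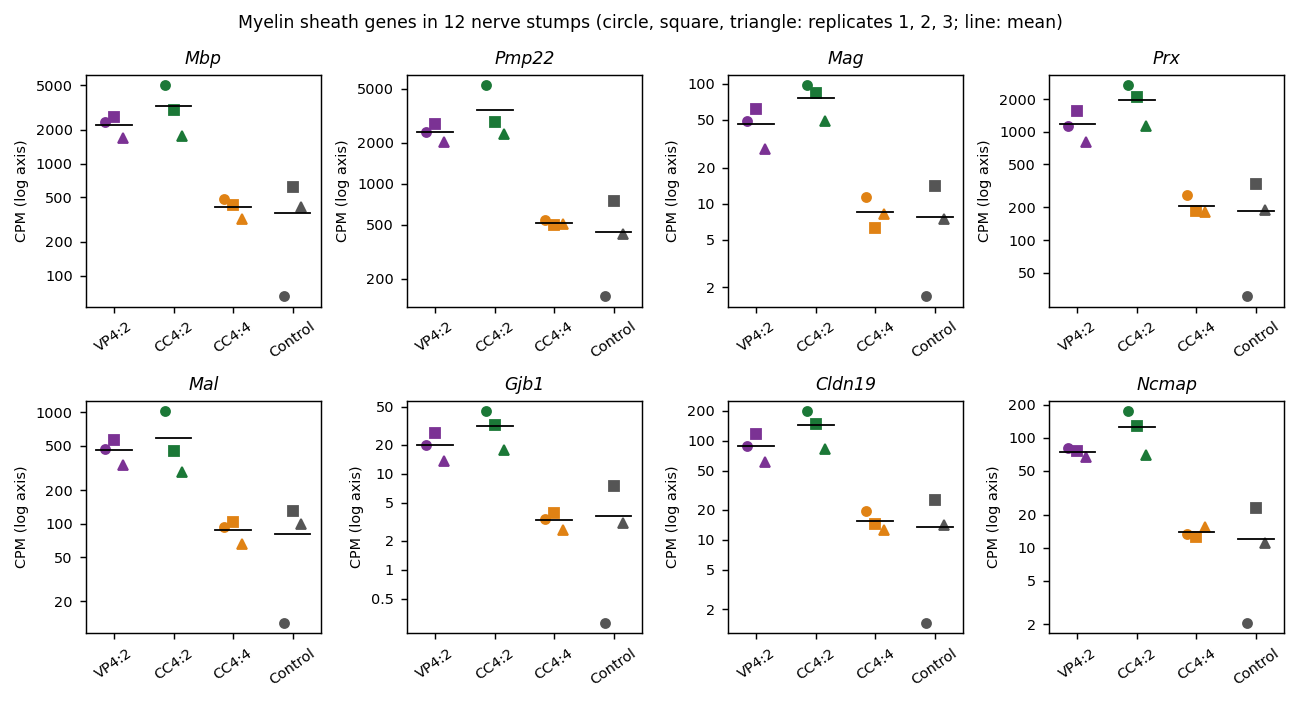
TMM-scaled CPM (log axis) of each gene in the 12 stumps, with VP4:2, CC4:2, CC4:4 and Control from left to right, a symbol per replicate and a line at the group mean. All 6 stumps with a 4:2 conduit lie above all 6 CC4:4 and Control stumps in each of the 8 panels, and Control replicate 1 is lowest throughout. How common this pattern is among all tested genes was not computed.

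Among the compact myelin genes, Mbp (ENSRNOG00000016516) encodes the basic protein that seals the inner faces of the membrane. Mbp measured 2362, 2589.8 and 1677 CPM in VP4:2 stumps, and 5023, 2998 and 1753 CPM in CC4:2 stumps. It measured 481, 429 and 319 CPM in CC4:4 stumps, and 65.6, 622 and 409 CPM in Control stumps. The lowest VP4:2 stump was still above the highest Control stump, while CC4:2 replicate 3 lay inside the VP4:2 range. The log2 fold change of VP4:2 over CC4:2 was -0.56 ± 0.62 (SE), with an edgeR adjusted p = 0.635 and a 95% interval of the fold from 0.261 to 1.76. CC4:2 over Control was 3.16 ± 0.68, or 8.92-fold (edgeR adjusted p = 0.0039).

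Pmp22 (ENSRNOG00000003338) encodes a membrane protein of compact myelin whose gene dosage causes inherited neuropathy in humans. It measured 2399, 2731 and 2031 CPM in VP4:2 stumps, and 5307, 2822 and 2300.3 CPM in CC4:2 stumps. CC4:4 stumps had 537, 493 and 502 CPM, and Control stumps 148, 740.2 and 426 CPM. The CC4:4 stumps were close together, inside the range of the controls. VP4:2 over CC4:2 was -0.54 ± 0.48 on the log2 scale (edgeR adjusted p = 0.539). CC4:2 over Control was 2.99 ± 0.51, or 7.94-fold (edgeR adjusted p = 0.0012), the smallest SE of the 8 genes in that comparison.

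Mal (ENSRNOG00000015445) encodes a proteolipid that carries membrane cargo to the sheath. Its level was 468, 566 and 338 CPM in VP4:2 stumps, and 1021, 454 and 292 CPM in CC4:2 stumps. It was 93.9, 102 and 65.5 CPM in CC4:4 stumps, and 12.9, 129 and 98.2 CPM in Control stumps. Here the VP4:2 stumps lay wholly inside the range of the CC4:2 stumps. The log2 fold change of VP4:2 over CC4:2 was -0.36 ± 0.66 (edgeR adjusted p = 0.785), the nearest to 0 of the 8 genes, and it was 0.29 without CC4:2 replicate 1. CC4:2 over Control was 2.88 ± 0.71 (edgeR adjusted p = 0.0082).

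Of the genes of uncompacted membrane and junctions, Mag (ENSRNOG00000021023) encodes the adhesion protein on the Schwann cell side that faces the axon. Mag had 49.3, 62.0 and 28.8 CPM in VP4:2 stumps, and 97.7, 84.2 and 48.6 CPM in CC4:2 stumps. Levels were 11.3, 6.30 and 8.14 CPM in CC4:4 stumps, and 1.69, 13.98 and 7.51 CPM in Control stumps. Each VP4:2 stump was below the CC4:2 stump of the same number, although the groups overlapped. VP4:2 over CC4:2 was -0.72 ± 0.56 (edgeR adjusted p = 0.479), and CC4:2 over Control was 3.33 ± 0.62, or 10.04-fold (edgeR adjusted p = 0.0018).

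Gjb1 (ENSRNOG00000063213) encodes connexin 32, whose channels join the layers of a sheath, and it is the gene of X-linked Charcot-Marie-Tooth disease in humans. It had the fewest counts of the 8, with 20.2, 26.7 and 13.6 CPM in VP4:2 stumps and 44.8, 32.4 and 17.9 CPM in CC4:2 stumps. CC4:4 stumps had 3.34, 3.93 and 2.60 CPM, and Control stumps 0.281, 7.50 and 3.07 CPM. The lowest control value stands for 5 counts, so it is imprecise. VP4:2 over CC4:2 was -0.65 ± 0.68 (edgeR adjusted p = 0.612), and CC4:2 over Control was 3.15 ± 0.76 (edgeR adjusted p = 0.0070), with the widest SE of the 8.

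Cldn19 (ENSRNOG00000007922) encodes a claudin of the tight junctions within the sheath. It reached 88.6, 117 and 60.9 CPM in VP4:2 stumps, and 198, 149 and 82.1 CPM in CC4:2 stumps. The other stumps were far lower, at 19.4, 14.4 and 12.4 CPM in CC4:4 and 1.46, 25.1 and 14.2 CPM in Control. VP4:2 over CC4:2 was -0.69 ± 0.67 (edgeR adjusted p = 0.582), and CC4:2 over Control was 3.41 ± 0.74, or 10.6-fold (edgeR adjusted p = 0.0042).

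Prx (ENSRNOG00000018369) encodes periaxin, a scaffold of the outer Schwann cell membrane that binds the dystroglycan complex. Prx measured 1132.5, 1559 and 812 CPM in VP4:2 stumps, and 2699, 2113 and 1137 CPM in CC4:2 stumps. In CC4:4 stumps it measured 260.1, 185 and 180.0 CPM, and in Control stumps 30.3, 329.8 and 192 CPM. VP4:2 and CC4:2 overlapped only through VP4:2 replicate 2 and CC4:2 replicate 3. VP4:2 over CC4:2 was -0.76 ± 0.64 (edgeR adjusted p = 0.516), the lowest of the 8, and CC4:2 over Control was 3.43 ± 0.70, or 10.8-fold (edgeR adjusted p = 0.0030), the highest of the 8.

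Ncmap (ENSRNOG00000048139) encodes a small membrane protein of noncompact myelin in peripheral nerve. Ncmap had 81.5, 75.4 and 66.9 CPM in VP4:2 stumps, and 174, 129 and 70.1 CPM in CC4:2 stumps. It had 13.3, 12.5 and 15.5 CPM in CC4:4 stumps, and 2.08, 23.0 and 11.1 CPM in Control stumps. The VP4:2 stumps were close together, and CC4:2 replicate 3 lay among them. VP4:2 over CC4:2 was -0.74 ± 0.58 (edgeR adjusted p = 0.488), and CC4:2 over Control was 3.38 ± 0.64, or 10.4-fold (edgeR adjusted p = 0.0021).

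The effect of loading the 4:2 conduit with verteporfin was asked by VP4:2 against CC4:2. No sheath gene passed the test here (0 of 8, by edgeR with Benjamini-Hochberg adjustment over all 15712 genes), against 6.23% of all tested genes called in either direction. All 8 fold changes were below 0, from -0.76 to -0.36 with a median of -0.67, and the median of all tested genes was -0.03. Limma-voom and DESeq2 also called 0 of the 8, against 939 and 1861 of all genes. An unadjusted edgeR p under 0.05 was found for 0 of the 8, and for 3475 of the 15712 tested genes. The groups overlapped in all 8 genes, while 17.5% of tested genes lay wholly higher and 14.6% wholly lower in VP4:2. The 95% intervals of the folds ran from 0.222 to 2.14 over the 8, so 1-fold, or no change, lay inside each of them. In this comparison same-numbered stumps varied together, but replicate 3 was read on another platform in every group, so a shared platform effect cannot be told apart. Each VP4:2 stump was below the CC4:2 stump of its number in 7 of the 8 genes, Mal being the exception. The share of all tested genes with this pattern was not computed. The 8 genes moved together over the stumps, so they are not separate observations. With the replicate number as a block in a fit of these 2 groups, an alternative added after the data were seen, Mag passed (-0.72, edgeR adjusted p = 0.029) and the other 7 did not. With the block in the fit of all 12 stumps, Mag had -0.75 and an edgeR adjusted p = 0.483. The first pair differed most, by -1.25 to -0.98 on the log2 scale over the 8 genes, and the median fold change was -0.35 without CC4:2 replicate 1. In the NovaSeq stumps alone (replicates 1 and 2) the median was -0.71 and 0 of 8 passed, with 202 of all genes called. The DNBSEQ stumps (replicate 3) differed by -0.75 to 0.21.

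How VP4:2 differed from the groups without a 4:2 conduit was read from 2 further comparisons. Against CC4:4, 7 of 8 sheath genes rose, with 5.7% of all tested genes called higher. Their fold changes were 2.23 to 2.61 on the log2 scale, and Mal, at 2.39 ± 0.70, just missed the threshold (edgeR adjusted p = 0.051). Against Control, all 8 rose, by 2.45 to 2.72, with 9.3% of all tested genes called higher. The stumps did not overlap for any of the 8 in either comparison, against 21.1% and 19.8% of tested genes that lay wholly higher in VP4:2 than in CC4:4 and in Control. The calls were close to the threshold. Against CC4:4, 5 of 8 passed with limma-voom, and all 8 with DESeq2 and in a fit of these 2 groups alone. Over all genes, 918, 1569 and 1668 were called higher there, against 896 in the edgeR fit of all stumps. With the replicate number as a block in that edgeR fit, 2 of 8 passed, and 681 of all genes were called higher. With the block in a fit of these 2 groups, all 8 passed, and 1184 of all genes were called higher. With stumps left out, 0 of the 8 passed without VP4:2 replicate 1, without VP4:2 replicate 2 or without any of the 3 CC4:4 stumps. Without VP4:2 replicate 3, 2 passed, and the median lay between 2.25 and 2.65 throughout. Calls over all genes fell as well, from 896 higher to between 81 and 526 higher in these fits. Against Control, 2 passed without VP4:2 replicate 1 and likewise without replicate 2, 6 without replicate 3, and 1 without Control replicate 3. Over all genes, 665, 594, 879 and 610 were called higher in these 4 fits, against 1461 with all stumps. The median against Control was 2.11 without Control replicate 1 and 3.39 without Control replicate 2. All 8 passed in both, where 2103 and 1294 of all genes were called higher. In a fit of VP4:2 and Control alone 1 of 8 passed, with 870 of all genes called higher. In the NovaSeq stumps 0 of 8 passed in either comparison, with medians of 2.58 against CC4:4 and 2.85 against Control. Those fits called almost no gene higher, 0 of all genes against CC4:4 and 2 against Control. The 0 of 8 is thus not particular to the sheath genes. The DNBSEQ stumps differed by 1.81 to 2.40 and by 1.78 to 2.58.

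CC4:2 against CC4:4 set the conduits of the 2 labels against each other, both without verteporfin. All 8 sheath genes rose in CC4:2, by 2.75 (Mal) to 3.26 (Gjb1) on the log2 scale with a median of 3.17, or 6.75-fold to 9.60-fold. Their edgeR adjusted p-values ran from 0.0021 to 0.011, with 18.5% of all tested genes called higher. None of the 8 overlapped between the groups, against 25.1% of tested genes wholly higher in CC4:2. All 8 passed with any stump left out, where 1879 to 2595 of all genes were called higher. Mal was 2.10 without CC4:2 replicate 1. In the NovaSeq stumps, the median was 3.34 and 3 of 8 passed, with 1427 of all genes called higher. The DNBSEQ stumps differed by 2.15 to 2.73.

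CC4:2 was set against Control as well. All 8 rose, by 2.88 (Mal) to 3.43 (Prx) with a median of 3.24, with 20.3% of all tested genes called higher. None of the 8 overlapped, against 23.5% of tested genes wholly higher. All 8 passed with any stump left out, but the control stumps set the size: the median was 2.75 without Control replicate 1 and 4.13 without Control replicate 2. Mal was 2.22 without CC4:2 replicate 1. The median was 3.55 in the NovaSeq stumps, where 6 of 8 passed and 1518 of all genes were called higher. The DNBSEQ stumps differed by 1.57 to 2.67.

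CC4:4 against Control asked what the conduit labelled 4:4 changed. No sheath gene passed (0 of 8), and 0% of all genes were called by edgeR, which found 830 genes at an unadjusted p under 0.05, while DESeq2 called 10 genes. None of those 830 was a sheath gene. The groups overlapped in all 8, while 3.12% of tested genes lay wholly higher and 4.3% wholly lower in CC4:4. The fold changes ran from -0.11 (Gjb1) to 0.22 (Pmp22), and their 95% intervals reached from 0.297-fold to 3.29-fold. Without Control replicate 1 all 8 were below 0, with a median of -0.32, and without Control replicate 2 all 8 were above 0, with a median of 0.93. The median was 0.28 in the NovaSeq stumps, and the DNBSEQ stumps differed by -0.58 to 0.48. The comparisons with VP4:2 and CC4:2 above share their CC4:4 or Control stumps, so they are not independent of each other.

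**Figure D2:**
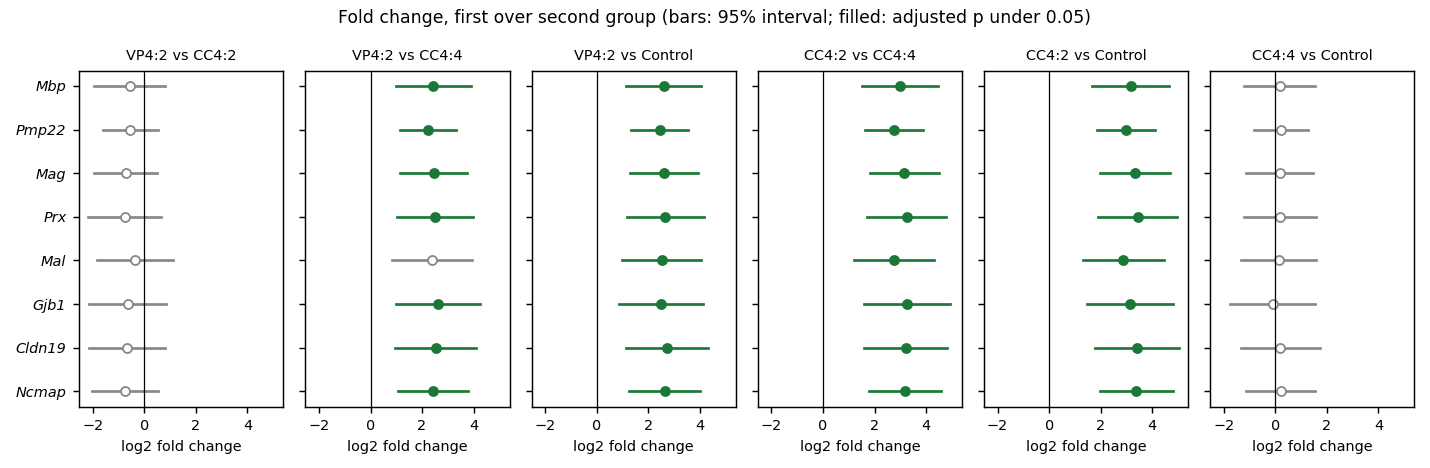
Log2 fold change, first group over second, of the 8 genes in the 6 comparisons, with 95% intervals and filled points where the edgeR adjusted p was under 0.05. VP4:2 against CC4:2 and CC4:4 against Control have 0 filled points, VP4:2 against CC4:4 has 7, and the other 3 comparisons have 8 each.

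The levels of the 8 genes went up and down together over the stumps. Each gene's log2 CPM followed the mean of the standardized 8 with a Pearson r of 0.990 (Mal) to 0.998 (Mbp) over the 12 stumps. Each gene is itself part of that mean, so part of r is built in. The description also rests largely on the gap between the 2 pairs of groups. For departures, each gene's log2 CPM was taken minus the plain mean of the 8 in its stump. The gene's own average of that difference over the 12 stumps was then removed. Mbp departed least, with an SD of 0.10 on the log2 scale, and Pmp22 most, with an SD of 0.34. The departure of Pmp22 was largest in Control replicate 1, at 0.94, where Cldn19 (-0.64) and Gjb1 (-0.51) were low, on 26 and 5 counts. Pmp22 is also made by other cells than Schwann cells, and whether that bears on its value there was not tested. Mal stood low in CC4:2 replicates 2 and 3 (-0.52 and -0.41). The total range was narrowest for Pmp22, with an SD of 1.54 over the stumps, and widest for Cldn19, with 2.00.

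**Figure D3:**
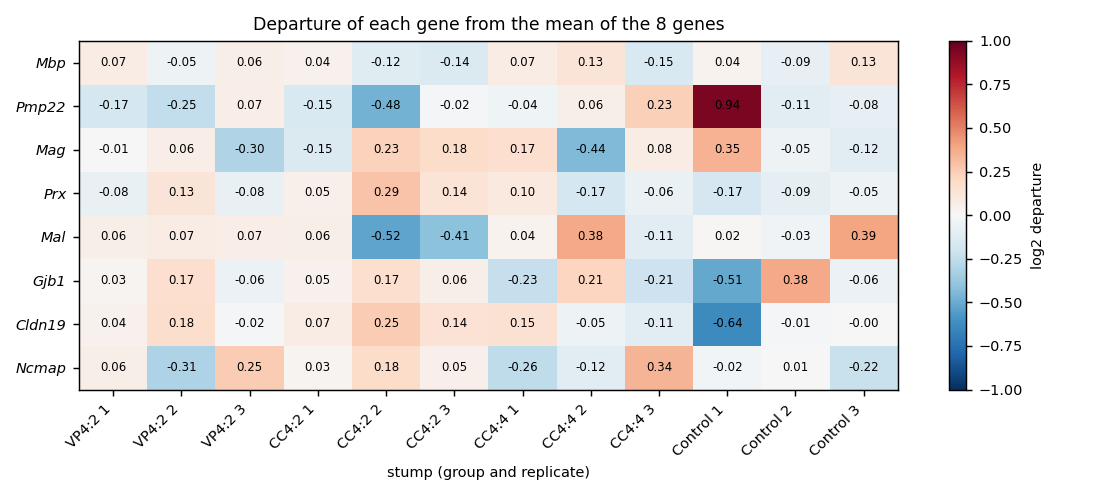
Departure of each gene's log2 CPM from the mean of the 8 genes in the same stump, with stumps in the order VP4:2, CC4:2, CC4:4 and Control. Most cells are pale, and the strongest departures are Pmp22 at 0.94 and Cldn19 at -0.64, both in Control replicate 1.

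Genes outside the 8 were ranked by how closely their log2 CPM followed the mean of the standardized 8 over the 12 stumps, among 9368 genes that averaged 10 CPM or more. The closest was Pllp, the gene of plasmolipin, another myelin proteolipid (Pearson r = 0.998). Ppp1r9a (0.997), Fa2h, which hydroxylates the fatty acids of myelin lipids (0.995), Kif19 (0.995), Fmn2 (0.995), Plekhb1 (0.995) and Lsmem2 (0.994) came next among those reported here. These stumps share libraries and groups, so the values describe likeness in this set alone.

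Schwann cell markers moved with the sheath genes. Summed over S100b, Sox10, Erbb3, Cdh19 and Foxd3, they measured 451 to 633 CPM in VP4:2 stumps, 590.0 to 1105 CPM in CC4:2, 109 to 219 CPM in CC4:4 and 38.2 to 219.9 CPM in Control. All 5 rose in CC4:2 against Control and against CC4:4, 3 of 5 rose in VP4:2 against Control and 2 of 5 against CC4:4, and 0 of 5 passed between VP4:2 and CC4:2. The mean of their log2 CPM differed by -0.70 for VP4:2 minus CC4:2 (exact permutation p = 0.2), and by 3.44 for CC4:2 minus Control (exact permutation p = 0.1, the smallest that 3 against 3 stumps allow). S100b is also made by fat cells, whose own markers rose in the same stumps.

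When each sheath gene was taken relative to the marker mean of its own stump, the differences between groups were far smaller. For CC4:2 minus Control they ran from -0.26 (Pmp22) to 0.58 (Cldn19), as differences of mean log2 CPM. The edgeR log2 fold changes of 2.88 to 3.43 given earlier are another measure, so the marker difference cannot be subtracted from them. For CC4:2 minus CC4:4 they ran from -0.31 to 0.29. VP4:2 minus CC4:2 gave -0.03 (Mag) to 0.50 (Mal), and VP4:2 minus CC4:4 gave 0.02 to 0.35. VP4:2 minus Control gave -0.02 to 0.63, and CC4:4 minus Control -0.04 to 0.34. The groups overlapped for all 8 genes in all 6 comparisons, with two-sided exact permutation p-values from 0.2 to 1.0, where 0.1 is the smallest possible. Mal relative to the markers was 2.81, 2.79 and 2.83 in VP4:2 stumps and 2.81, 2.03 and 2.08 in CC4:2 stumps, so the first CC4:2 stump matched the VP4:2 level and the other CC4:2 stumps were lower.

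**Figure D4:**
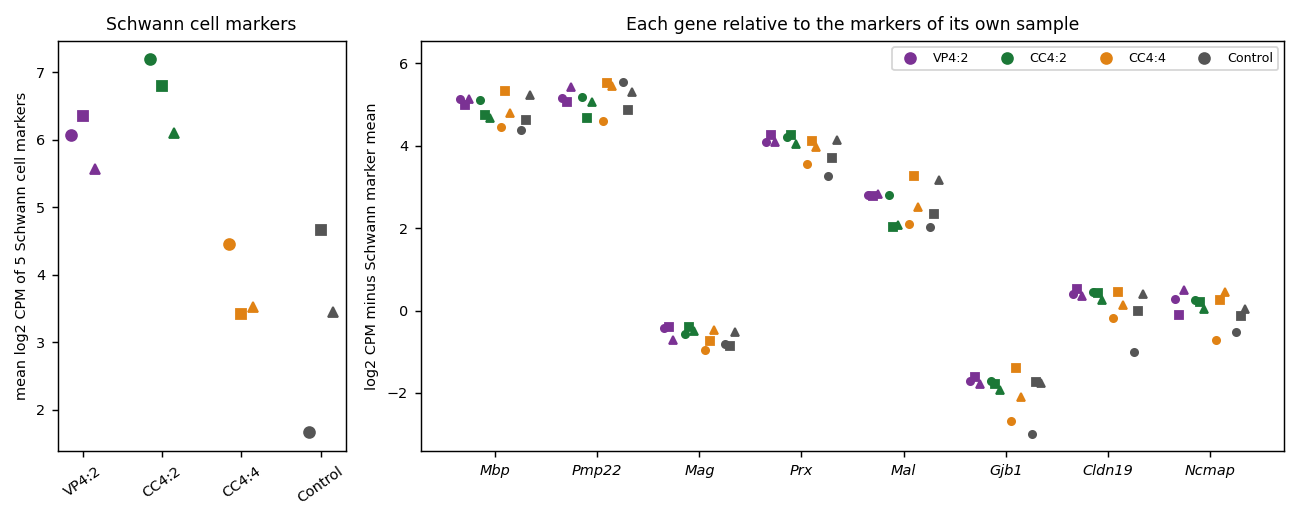
Left, mean log2 CPM of the 5 Schwann cell markers per stump. Right, log2 CPM of each sheath gene minus that mean, for VP4:2, CC4:2, CC4:4 and Control in turn, to be compared within a gene. The marker mean spans 1.67 to 7.19, while each gene's relative level overlaps between all groups.

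Other parts of the sheath programme moved in the same direction in CC4:2 against Control. The median of 9 further sheath genes was 2.23 and 7 of them rose, including Cd9, a tetraspanin of the Schwann cell membrane (1.87 ± 0.25, edgeR adjusted p = 3.2e-04). Of 17 genes of junctions and axon contact, 15 rose, and the list median was 2.17. These held the laminin receptor chains Itgb4 (3.65 ± 0.59, edgeR adjusted p = 8.1e-04) and Itga6 (2.67 ± 0.31, edgeR adjusted p = 1.6e-04). They also held Dag1, the gene of dystroglycan, which Prx is known to reach through its partner (2.10 ± 0.26, edgeR adjusted p = 2.3e-04). Of 12 enzymes that make myelin lipids, 11 rose (list median 1.53), such as Fasn, the fatty acid synthase (3.03 ± 0.43, edgeR adjusted p = 4.3e-04), and Scd2, a desaturase (1.75 ± 0.30, edgeR adjusted p = 0.0012). Fat cell markers rose here as well (5 of 5), and which cells carried the RNA of Fasn and Scd2 was not tested. Among all tested genes, 20.3% were called higher and 23.2% lower in this comparison.

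As a list, genes that act upstream of the sheath had a lower median, at 1.40 for 17 activators of myelination. That list was uneven, from -0.19 (Hdac1) to 3.43 (Pou3f1), both named after their values were seen. The median thus does not stand for each gene. Of the 17 activators, 12 passed, all upward. They held the transcription factor gene Zeb2 (0.43 ± 0.12, edgeR adjusted p = 0.016), the YAP gene Yap1 (0.88 ± 0.20, edgeR adjusted p = 0.0059) and its relative Wwtr1 (1.40 ± 0.24, edgeR adjusted p = 0.0013). Egr2, the main transcription factor of peripheral myelination, was looked up after the lists were counted and had 2.00 ± 0.38 (edgeR adjusted p = 0.0021). Of 9 genes of trafficking and inherited neuropathy, 7 rose, such as Ndrg1 (2.15 ± 0.28, edgeR adjusted p = 3.0e-04). Litaf, a gene of lysosomal sorting that is also active in macrophages, fell by 1.47 (SE 0.20, edgeR adjusted p = 3.2e-04). Of 9 tested genes of immature or repair Schwann cells, 4 rose (Jun, Ngfr, Sox2 and Shh) and 2 fell (Id2 by 0.80 and Runx2 by 1.45), named after their values were seen. Jun, the repair programme's transcription factor, was 0.74 ± 0.19 (edgeR adjusted p = 0.0088), while Notch1 and Ncam1 had 0.34 and -0.15 and did not pass.

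In VP4:2 against CC4:2, 0 of the 9 further sheath genes, 0 of 17 junction genes, 0 of 12 lipid enzymes and 0 of 17 activators passed. Their medians were -0.51, -0.59, -0.53 and -0.33. Of all tested genes, 6.23% were called in either direction in this comparison, so few calls would be found in lists this short at that share. Fasn was at -1.33 ± 0.41 (edgeR adjusted p = 0.086) and Itgb4 at -1.27 ± 0.54 (edgeR adjusted p = 0.195). Litaf rose (0.88 ± 0.19, edgeR adjusted p = 0.024), as did Runx2 of the repair list (0.89 ± 0.21, edgeR adjusted p = 0.031), which was singled out after its value was seen. Against Control, VP4:2 stumps had 5 of 9 further sheath genes, 13 of 17 junction genes, 8 of 12 lipid enzymes and 8 of 17 activators higher. There, 9.3% of all tested genes were called higher. Egr2, Sox10, Erbb3 and Itgb4 stand in more than 1 list.

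Markers of other cells changed along with the sheath genes, and their part in the result was not tested. Neutrophil markers (5) summed to 11.3 to 15.7 CPM in VP4:2, 8.74 to 13.3 in CC4:2, 269 to 702 in CC4:4 and 264 to 533 in Control, and all 5 fell in CC4:2 against Control. All 5 T cell markers tested fell there too, with sums of 46.3 to 65.4 CPM in VP4:2, 8.42 to 27.5 in CC4:2, 147 to 242 in CC4:4 and 184 to 245 in Control. So did all 5 B and plasma cell markers, with sums of 303 to 1144 CPM in VP4:2, 11.9 to 184 in CC4:2, 2139 to 5044 in CC4:4 and 680.4 to 6298 in Control. Macrophage markers (8) summed to 4001 to 5032 CPM in VP4:2, 1059 to 1231 in CC4:2, 2910.2 to 3859 in CC4:4 and 3872 to 3992 in Control. Of these, 5 fell in CC4:2 against Control, and 4 rose in VP4:2 against CC4:2, led by Gpnmb (3.04 ± 0.24, edgeR adjusted p = 1.2e-04), as did 3 of 5 T cell markers, while the sheath genes did not pass there. Fat cell markers (5) summed to 387 to 1084 CPM in VP4:2, 510 to 1736 in CC4:2, 88.3 to 602 in CC4:4 and 44.8 to 77.5 in Control, and all 5 rose in CC4:2 against Control. Perineurial markers summed to 1460.0 to 2028 CPM in VP4:2, 3739 to 4269 in CC4:2, 432 to 665 in CC4:4 and 328 to 804 in Control, and 3 of 4 rose in CC4:2 against Control while 1 fell. Of the nerve fibroblast markers 3 of 6 rose, of the endothelial 2 of 4, of the epithelial 1 of 4 and of the skeletal muscle 0 of 5.

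Mbp, Mag and Mal are also made by oligodendrocytes, the myelinating cells of the brain and spinal cord. The defining oligodendrocyte markers Mog, Mobp, Opalin and Olig2 had 13, 6, 25 and 6 counts in all 12 libraries together, too few to be tested. With Ermn and Hapln2, oligodendrocyte markers summed to at most 6.41 CPM in any stump.

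**Figure D5:**
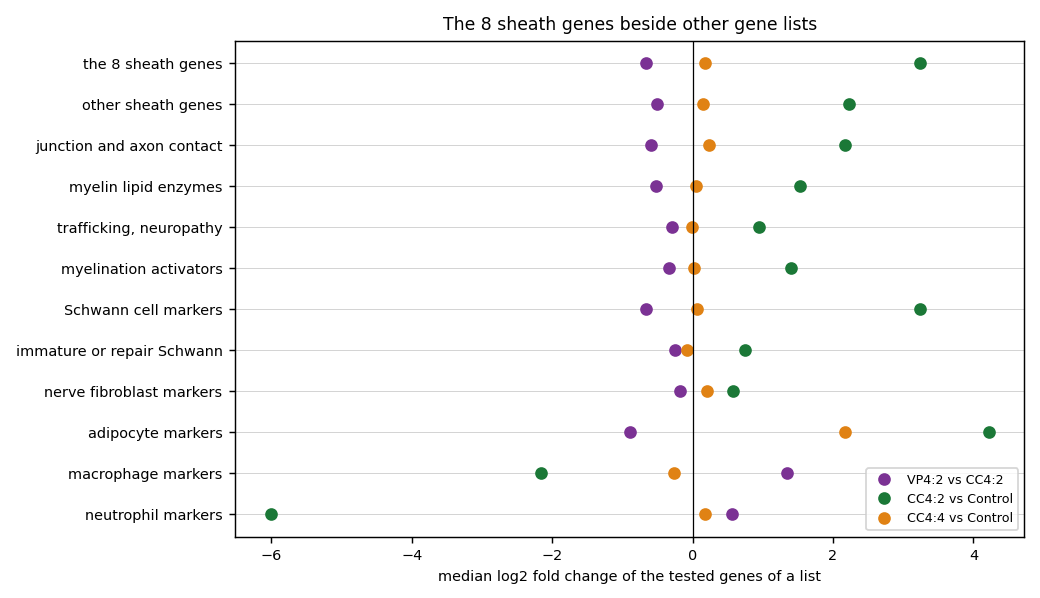
Median log2 fold change of the tested genes of each list in VP4:2 against CC4:2, CC4:2 against Control and CC4:4 against Control. For CC4:2 against Control the 8 sheath genes (3.24) and the Schwann cell markers (3.25) lie side by side, with fat cell markers above (4.22) and neutrophil markers at the other end (-6.00).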

How the data were processed

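The deposited table holds expected counts, not normalized as far as its header tells. In each sample 9.44% to 11.1% of them were fractional, and all were rounded before testing. HISAT2, StringTie, RSEM and DESeq2 were used by the authors, per the submitters' processing notes; roles, versions, genome build and annotation are not given in the sources used here. Libraries were stranded and poly(A)-selected, per the labels' protocols, with replicates 1 and 2 read on NovaSeq and replicate 3 on DNBSEQ in every group. The 12 deposited tables were identical, so 1 was read. Symbols came from the deposited table, in which 4367 genes had none. No pair of replicates agreed within counting noise.

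All 12 samples entered 1 edgeR 4.0.16 quasi-likelihood fit (R 4.3.3, limma 3.58.1; TMM scaling, filterByExpr, a term per group, 8 residual degrees of freedom). A call needs a Benjamini-Hochberg adjusted p under 0.05 over all 15712 tested genes. SEs were worked back from log2 fold change and F statistic. Log2 CPM used a prior count of 2, and marker means were compared by two-sided exact permutation tests. The test was checked on simulated counts with equal numbers of true 2-fold and 4-fold changes. Of 91 to 110 calls per comparison, 1 to 10 were false. True 4-fold changes were called 70 to 78 times and 2-fold changes 19 to 30 times, so 2-fold changes were mostly missed. The changed genes were drawn at random from all tested genes, and each gene varied on its own. These rates thus do not give the power for the 8 sheath genes, which moved together over the stumps.

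Members and gene lists were chosen with earlier results of these data known. Named genes were the 8 members, the 3 genes of highest mean CPM in each list and the 8 genes closest to the members' mean; others are said to be chosen later. Only some of these genes are printed, picked with their values in view. Some results of 2 genes are not reported here. Same-numbered stumps of VP4:2 and CC4:2 deviated together (correlations of 0.12, 0.28 and 0.43). VP4:2 against CC4:4 gave smaller positive values (0.03, 0.13 and 0.21), and each other comparison had a negative pair, down to -0.40. Replicate number carries the platform, so platform and other shared sources cannot be told apart. Alternatives were RLE scaling, no filter, DESeq2 1.42.0, limma-voom, a fit of 2 groups, a replicate block, NovaSeq samples alone, a prior count of 0.5, each sample left out and a threshold of 0.01. Counting error is not small where counts are few. Control replicate 1 held 5 counts of Gjb1, 26 of Cldn19, 30 of Mag and 37 of Ncmap, and CC4:4 stumps held 38 to 58 of Gjb1.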

Additional observations from a re-analysis of the deposited data

How the results depend on the processing

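For CC4:2 against CC4:4 and against Control, all 8 sheath genes kept their direction under every alternative run. Of the 8, 3 were called for CC4:2 against CC4:4 in the NovaSeq samples alone. For CC4:2 against Control, 1 was called with a replicate block in a fit of the 2 groups. For VP4:2 against CC4:4, 2 were called with a replicate block over all samples, where 681 of all genes were called higher, against 896 without it. There, 0 were called in the NovaSeq samples, 0 at the 0.01 threshold, and 0 to 2 with a sample left out. For VP4:2 against Control, 1 was called in a fit of the 2 groups, 0 with the replicate block added to it, 0 in the NovaSeq samples, 0 at the 0.01 threshold and 1 to 8 with a sample left out. The replicate block made 1 call for VP4:2 against CC4:2 in a fit of the 2 groups, and 0 over all samples. The NovaSeq and left-out settings hold fewer samples; the cause of the other changes was not tested.

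With a sample left out, the fold change of Mal for VP4:2 over CC4:2 ran from -0.69 to 0.29. For CC4:4 over Control it ran from -0.32 to 0.80 for Mbp, -0.19 to 0.84 for Pmp22, -0.32 to 0.94 for Mag, -0.32 to 0.92 for Prx, -0.37 to 0.66 for Mal, -0.68 to 1.06 for Gjb1, -0.34 to 1.02 for Cldn19 and -0.30 to 1.10 for Ncmap. Gjb1 there was 1.01 with limma-voom, 0.042 with a replicate block and 0.50 with the block in a fit of the 2 groups.

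Over all genes, VP4:2 against CC4:2 gave 979 calls, but 1861 with DESeq2, 1920 with the block and 2 groups, 202 in NovaSeq samples, 396 at 0.01 and 466 to 746 with a sample left out. VP4:2 against CC4:4 gave 1762, but 3083 with DESeq2, 3321 in a fit of 2 groups, 29 in NovaSeq samples, 172 at 0.01 and 232 to 1175 with a sample left out. VP4:2 against Control gave 2964, but 1869 in a fit of 2 groups, 1238 with the block there, 19 in NovaSeq samples, 733 at 0.01 and 1166 to 4294 with a sample left out. CC4:2 against CC4:4 gave 6156, but 3253 in NovaSeq samples and 3483 at 0.01. CC4:2 against Control gave 6835, but 4363 in a fit of 2 groups, 3095 with the block there, 3220 in NovaSeq samples and 4107 at 0.01. CC4:4 against Control gave 0, but 10 with DESeq2, 295 without Control replicate 1, and 1 each without CC4:4 replicate 3 and without Control replicate 3. Depth limits Gjb1 most, with 5 counts in the lowest control.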
